A study of Mus musculus with 4 samples.

Results

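Fc gamma receptors are the proteins on myeloid and other immune cells that bind the constant end of IgG antibodies, and the mouse genes examined here were those of the 3 activating receptors (Fcgr1, Fcgr3 and Fcgr4), of the inhibitory receptor (Fcgr2b), of the adaptors Fcer1g and Tyrobp, and of the kinase Syk. The members were the rows of the count tables whose gene symbol equaled one of these 7 names, and all 7 were found among the 55367 gene rows. The series concerns the chromatin organizer Satb1 in tumor-infiltrating lymphocytes and holds 4 mouse RNA libraries, of which 2 carry the label WT and 2 the label KO. Per the labels, the sort took CD45.2+CD8+ cells out of dissociated B16-F10 tumors, which grow from a melanoma line of the mouse, and polyadenylated RNA was sequenced. The series names WT mice and mice in which floxed Satb1 is deleted by ThPOK-cre, which acts in the CD4 lineage, or by E8I-cre, which acts in mature CD8 T cells. The labels do not say which Cre the KO libraries carried, nor the sex of the animals, how many animals gave each library, or what the groups otherwise shared. The study's methods give an age of 8 to 12 weeks and mixed sexes for its mice, and the C57BL/6 strain for WT.

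An activating Fc gamma receptor binds IgG but signals through the Fc receptor gamma chain, encoded by Fcer1g, whose cytoplasmic tail carries an immunoreceptor tyrosine-based activation motif (ITAM). Src family kinases phosphorylate the ITAM, Syk docks on it through paired SH2 domains, and phagocytosis, cytokine release and killing of antibody-coated cells can follow. Fcgr2b instead carries an inhibitory motif (ITIM) in its own tail and recruits phosphatases, so that the ratio of activating to inhibitory receptors sets how readily a macrophage responds to IgG. Tyrobp, also called DAP12, is the other ITAM adaptor of myeloid and NK cells and serves receptors such as Trem2. Mature CD8 T cells are not known as a main source of these genes, whereas tumor macrophages and monocytes are.

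Several genes split with the labels. Satb1, the targeted gene, had 7 and 5 counts in the WT-labeled libraries and 131 and 55 in the KO-labeled ones. It was thus higher under the KO label (log2 fold change 3.36, SE 0.79, edgeR adjusted p = 0.115). T cell markers were higher there too, at a median log2 fold change of 3.68. These bulk counts therefore cannot show whether Satb1 was deleted in the T cells. The 10 T cell markers took 0.00672% and 0.0106% of gene counts in the WT-labeled libraries and 0.244% and 0.123% in the KO-labeled ones, with all 10 higher in the KO-labeled libraries. The 12 macrophage or monocyte markers took 2.33% to 4.03% in all 4. Lyz2 (lysozyme) was the most abundant of these, and 9 of the 12 had fitted fold changes below 0. For Xist, the RNA that coats the silenced X chromosome in female cells, the WT-labeled libraries gave 435 and 216 counts and the KO-labeled ones 0 and 3, and Ddx3y, on the Y chromosome, had 0 and 0 against 188 and 81. The label, sex, T cell content and melanoma content therefore cannot be told apart in any comparison below, and groups are called by their labels only. Any difference in macrophage content between the labels enters the same comparisons. Gene counts per library ran from 4017875 to 5382915, and 3 counts corresponded to 0.557 to 0.747 CPM (gene counts scaled to a fixed library total).

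Promoter sequence was available for 6 of the 7 members from RefSeq (GRCm38.p6, 250 bases before to 50 after a gene start), with no entry for Tyrobp. Because PU.1, the ETS family factor that many myeloid genes depend on, binds sites built on GAGGAA, that motif was searched on both strands, where its reverse complement is TTCCTC. It was present in a window of Fcgr1, Fcgr3, Fcgr4 and Syk and in none of Fcgr2b or Fcer1g, which is 4 of 6 genes (66.7%) beside 8446 of 27025 genes (31.3%) with a promoter entry. The 30 bases around each match are shown for those 4 genes, 5′ to 3′ on the gene's own strand, with the match in capitals.
Fcgr1, chr3:96294007-96294036, minus strand: atggcaacttccTTCCTCttttctaatctt
Fcgr3, chr1:171059392-171059421, minus strand: gagtccatttccTTCCTCtttttgtagttc
Fcgr4, chr1:171018892-171018921, plus strand: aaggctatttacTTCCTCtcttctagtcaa
Syk, chr13:52596861-52596890, plus strand: tgctgacactttGAGGAAaagccacttccc

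The match began 55 bases before the start of Fcgr1, 22 before that of Fcgr4 and 15 or 6 before the starts of Fcgr3, which has 2 promoter entries that overlap. The 3 activating receptors carried it as TTCCTC on the printed strand. In Syk, which also has 2 promoter entries, it was read as GAGGAA and lay 9 bases before the second start only. A match describes letters in the window and not a bound site. The 250 bases before the start are shown for Fcgr4 and Fcgr2b, the receptors whose counts differed most and least between the libraries, and for Fcer1g, the most abundant member.
Fcgr4, chr1:171018676-171018925, plus strand: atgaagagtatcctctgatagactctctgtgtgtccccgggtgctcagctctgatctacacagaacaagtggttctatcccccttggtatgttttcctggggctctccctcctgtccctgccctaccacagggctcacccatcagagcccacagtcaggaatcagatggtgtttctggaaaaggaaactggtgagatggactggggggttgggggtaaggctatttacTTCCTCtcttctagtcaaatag
Fcgr2b, chr1:170976072-170976321, minus strand: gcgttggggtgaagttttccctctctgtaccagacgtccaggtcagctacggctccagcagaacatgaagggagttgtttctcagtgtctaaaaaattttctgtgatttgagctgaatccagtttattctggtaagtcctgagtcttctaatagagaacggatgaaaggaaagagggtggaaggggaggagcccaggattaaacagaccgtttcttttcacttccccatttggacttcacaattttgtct
Fcer1g, chr1:171234350-171234599, minus strand: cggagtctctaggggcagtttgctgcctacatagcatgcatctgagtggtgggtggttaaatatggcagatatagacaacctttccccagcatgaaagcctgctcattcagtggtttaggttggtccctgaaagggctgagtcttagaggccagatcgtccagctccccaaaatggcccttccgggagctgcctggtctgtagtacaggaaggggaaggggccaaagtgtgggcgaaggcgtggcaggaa

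All 7 members were read in all 4 libraries, with between 528 and 17904 counts each, and all passed the filter on low counts. Together they took 0.938% of gene counts in WT 1 (exact binomial 95% interval 0.929 to 0.948), 0.860% in WT 2 (0.852 to 0.869), 0.467% in KO 1 (0.461 to 0.474) and 0.538% in KO 2 (0.532 to 0.544). These intervals cover counting error only. Both libraries labeled KO lay below both labeled WT. Without the adaptors the share differed by -0.107 percentage points between the group means, beside -0.397 for all 7 members. Of the 2 adaptors, Fcer1g differed more, with means of 4102 CPM under WT and 1632 under KO. Those of Tyrobp were 1302 and 872 CPM. In bulk RNA, fewer cells of a type and less RNA per cell cannot be told apart.

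None of the 7 members passed the test between the groups. The edgeR quasi-likelihood test, adjusted over all 11837 genes tested, called 0 of 7 members (smallest adjusted p = 0.175, for Fcgr4), and its background was 68 genes called in either direction (0.574%) and 3 called lower in KO (0.0253%). At an unadjusted p under 0.05, 3 members were lower in the KO-labeled libraries (Fcer1g, Fcgr1 and Fcgr4), beside 4.23% of all genes. DESeq2 called 2 members lower (Fcer1g and Fcgr4), beside 0.558% of all genes. Without KO 2, edgeR called 3 members, Fcgr1, Fcgr4 and Fcer1g, in a fit where 1248 genes passed in all. The lone KO 1 library is then assumed to vary like the WT-labeled libraries.

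The median log2 fold change of the members, KO against WT, was -0.92 with TMM scaling (factors that assume most genes do not change), beside 0.051 over all genes tested. All 7 fitted values were below 0, although that of Fcgr2b was 0.034 when libraries were scaled by their totals alone. Going from TMM to totals moved the median of all genes by 0.34, to 0.39, and the members' median to -0.57. Set against the median of all genes, the values were -1.72 and -1.71 for Fcer1g and -0.34 and -0.35 for Fcgr2b. They are close by construction, because a change of library scaling shifts all genes nearly alike. The libraries labeled KO lay below both labeled WT in CPM for 5 of 7 members, all but Fcgr2b and Syk, beside 12.6% of all genes. In TMM-normalized CPM this held for 7 of 7, beside 22.6%. The margin was thin for Syk, at 196 in KO 2 beside 201 in WT 2, and Fcgr2b and Syk separated only through the TMM factors. The plot of levels by library shows the CPM values that the following paragraphs give.

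**Figure D1:**
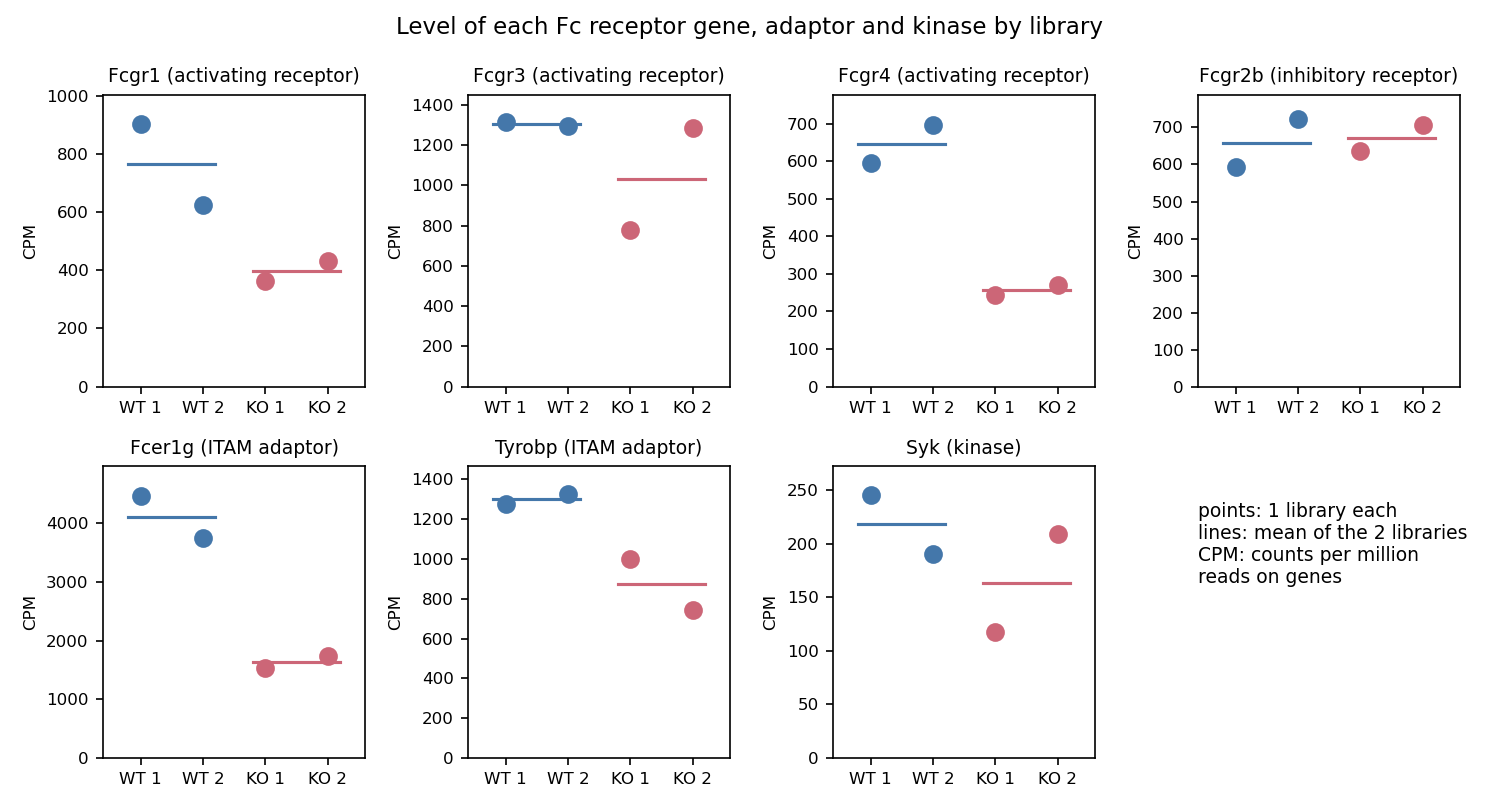
CPM of each of the 7 genes in each library, with 1 panel per gene, each on its own vertical axis from 0; points are single libraries and lines the mean of the 2 libraries of a label. Fcgr4 and Fcer1g are separated by label, at 244 and 270 against 595 and 696 CPM for Fcgr4, whereas the 4 values of Fcgr2b lie between 593 and 723 CPM.

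Fcgr1 encodes FcγRI, the high-affinity receptor that can bind monomeric IgG (ENSMUSG00000015947.10, chr3:96282909-96293969, minus strand, mm10). Its level was 901 CPM in WT 1 and 626 in WT 2, beside 364 in KO 1 and 431 in KO 2, or 764 ± 195 against 398 ± 47.6 (mean ± SD, n = 2). Every library labeled KO was below every library labeled WT, and WT 1 and WT 2 differed more than the pair labeled KO. The fitted log2 fold change was -1.29 (95% interval -2.42 to -0.16, SE 0.50, edgeR adjusted p = 0.303).

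The low-affinity activating receptor Fcgr3 (ENSMUSG00000059498.13, chr1:171051174-171064935, minus strand) was the most abundant of the 4 receptors per length. It measured 1314 CPM in WT 1 and 1293 in WT 2, beside 780 in KO 1 and 1286 in KO 2, so that KO 2 nearly matched the WT-labeled libraries and KO 1 alone was low. The means were 1304 ± 15.0 and 1033 ± 358 CPM. Its log2 fold change of -0.66 (95% interval -1.84 to 0.53, SE 0.53, adjusted p = 0.604, edgeR) was within the spread of the libraries, and it ran from -1.19 to -0.29 when 1 library was left out, with the lowest value obtained without KO 2. Of the 50-base windows of Fcgr3 exons, 9.58% also occur in Fcgr2b, its neighbor and close paralog, and how many reads this left uncounted was not measured.

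Fcgr4, the receptor for IgG2a and IgG2b on monocytes and macrophages (ENSMUSG00000059089.4, chr1:171018920-171029761, plus strand), differed most among the receptors. There were 2390 counts in WT 1 and 2965 in WT 2, beside 1092 in KO 1 and 1456 in KO 2, which is 595, 696, 244 and 270 CPM. The groups did not overlap, and each pair lay close together, at 645 ± 71.4 and 257 ± 18.9 CPM. The fitted level in the WT-labeled libraries was 3.14 times that in the KO-labeled libraries (log2 fold change -1.65, 95% interval -2.70 to -0.61, SE 0.46). The adjusted p was 0.175 by edgeR and 0.00930 by DESeq2, and it ran from 0.00930 to 1.0 over the alternatives, with the highest value obtained without WT 1.

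The inhibitory receptor Fcgr2b (ENSMUSG00000026656.15, chr1:170958617-170976547, minus strand) varied little across the libraries. It had 593 CPM in WT 1 and 723 in WT 2, beside 637 in KO 1 and 706 in KO 2, so that both KO-labeled values lay between the WT-labeled ones. The means were 658 ± 91.7 and 672 ± 48.7 CPM. The log2 fold change was -0.29 with TMM scaling and 0.034 with library totals (95% interval with TMM -1.34 to 0.75, SE 0.47, edgeR adjusted p = 0.816), an interval that reaches well to either side of 0. The TMM value was -0.16 without KO 1 and -0.48 without KO 2. A gene on the opposite strand, Gm38204, overlaps 2.68% of its exon bases and had at most 3 counts in any library.

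Fcer1g, the shared gamma chain without which the mouse activating receptors are poorly displayed (ENSMUSG00000058715.11, chr1:171229572-171234365, minus strand), was the most abundant member and ranked 22nd and 25th among all genes in WT 1 and WT 2 by CPM. Its counts were 17904 and 15972 in the WT-labeled libraries and 6851 and 9334 in the KO-labeled ones, or 4456, 3748, 1529 and 1734 CPM. The groups were well separated, with WT 2, the lower of its pair, far above KO 2, the higher of the other. The fitted ratio of WT to KO was 3.18 (log2 fold change -1.67, 95% interval -2.91 to -0.43, SE 0.55), with an adjusted p of 0.240 by edgeR and 0.0102 by DESeq2, and a range of 0.0102 to 1.0 over the alternatives. Fcer1g made up 47.5% and 43.6% of the members' counts in the WT-labeled libraries and 32.7% and 32.2% in the KO-labeled ones.

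Tyrobp (ENSMUSG00000030579.10, chr7:30413760-30417585, plus strand) measured 1276 CPM in WT 1 and 1329 in WT 2, beside 1001 in KO 1 and 744 in KO 2. The groups did not overlap, and the KO-labeled pair lay further apart than the WT-labeled pair. The means were 1302 ± 37.0 and 872 ± 181 CPM, and the log2 fold change was -0.92 (95% interval -2.02 to 0.18, SE 0.49, edgeR adjusted p = 0.441).

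Syk, the kinase that docks on phosphorylated ITAMs (ENSMUSG00000021457.14, chr13:52583173-52648792, plus strand), was the least abundant member, with 987 and 810 counts in the WT-labeled libraries and 528 and 1123 in KO 1 and KO 2. At 246, 190, 118 and 209 CPM, KO 2 lay between the WT-labeled libraries. Its log2 fold change was -0.75 (95% interval -1.86 to 0.36, SE 0.49, edgeR adjusted p = 0.529), and it ran from -0.35 without KO 1 to -1.34 without KO 2. For each of the 7 members, the largest adjusted p over the alternatives was 1.0, obtained without WT 1.

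**Figure D2:**
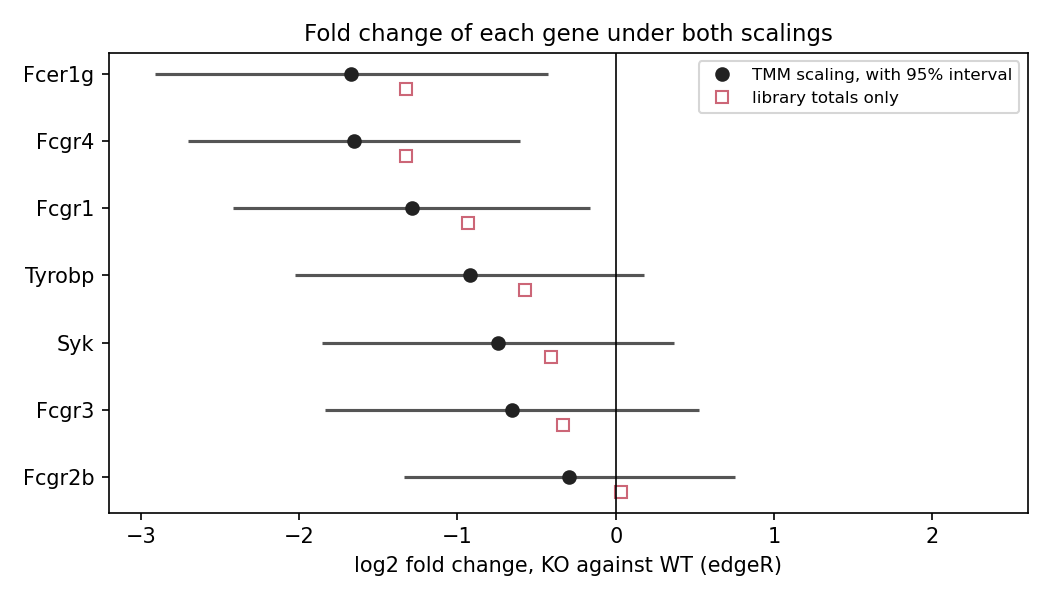
Log2 fold change of each gene, KO against WT, from edgeR; filled circles with lines give the estimate with TMM scaling and its 95% interval, and open squares the estimate with library totals alone. The intervals of Fcer1g, Fcgr4 and Fcgr1 lie below 0 before adjustment over all genes, and the 2 estimates for Fcgr2b, -0.29 and 0.034, lie on either side of 0.

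Levels of different genes were compared per kilobase of exon. The order Fcer1g, Tyrobp, Fcgr3, Fcgr4, Fcgr1, Fcgr2b and Syk was the same in all 4 libraries. Fcer1g ran from 1750 to 5098 CPM per kb and Tyrobp from 1116 to 1992, ranges that overlap across libraries, and in KO 1 they stood at 1750 and 1500. Fcgr3 spanned 449 to 757 CPM per kb and Fcgr4 spanned 194 to 554, and that range in turn overlapped the 141 to 348 of Fcgr1. Fcgr2b, at 102 to 125 CPM per kb, was below the lowest value of each activating receptor, and Syk, at 12.6 to 26.2, was below all of them.

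The activating receptors outnumbered the inhibitory one in every library, by less in the KO-labeled libraries. The summed level per kb of Fcgr1, Fcgr3 and Fcgr4 was 15.4 times that of Fcgr2b in WT 1 and 12.3 times in WT 2, beside 7.12 times in KO 1 and 9.21 times in KO 2. The groups did not overlap, and the mean log2 ratio differed by -0.77, KO minus WT, beside a pooled SD of 0.25 within groups. The two-sided exact permutation test gave p = 0.33, the smallest value that 2 libraries against 2 allow, so that the design cannot reach 0.05. Since the ratio is formed within a library, library scaling does not enter it. Leaving out 1 library gave -0.95 to -0.58.

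The receptors did not contribute alike to that ratio. Fcgr4 to Fcgr2b was 4.62 and 4.44 in the WT-labeled libraries and 1.76 and 1.77 in the KO-labeled ones. The log2 difference was -1.36 (exact permutation p = 0.33). The pooled SD of 0.030 comes from 2 libraries per label that lay very close, and it may understate the spread between libraries. Fcgr1 to Fcgr2b was 3.40 and 1.94 against 1.28 and 1.37, a log2 difference of -0.96. Fcgr3 to Fcgr2b was 7.39 and 5.97 against 4.08 and 6.08 and overlapped between the groups (log2 difference -0.42). With Fcgr1 and Fcgr4 alone as activating receptors, which avoids the paralog Fcgr3, the log2 difference was -1.21.

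Expressed as shares of the 4 receptors per kb, Fcgr4 made up 28.2% and 33.3% in WT 1 and WT 2 and 21.7% and 17.3% in KO 1 and KO 2, whereas Fcgr3 made up 45.0% and 44.7% against 50.2% and 59.5%. Fcgr1 held 20.7%, 14.5%, 15.7% and 13.4% in the same order of libraries, without separation by label. Fcgr2b held 6.09% and 7.50% against 12.3% and 9.80%. Counted as reads without the length correction, Fcgr2b took 17.4% of the receptor reads in WT 1 (exact binomial 95% interval 16.8 to 18.1), 21.7% in WT 2 (21.0 to 22.3), 31.5% in KO 1 (30.5 to 32.4) and 26.2% in KO 2 (25.5 to 26.9).

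**Figure D3:**
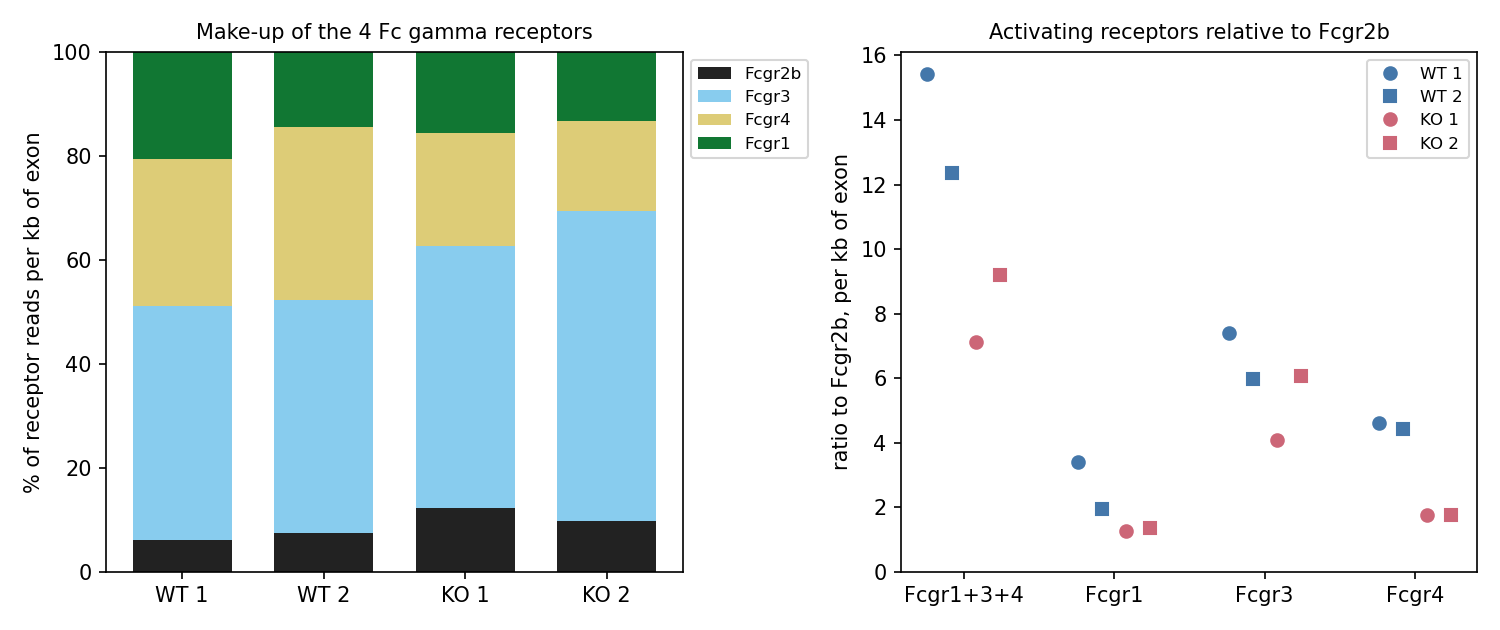
Left, the share of each Fc gamma receptor in the summed reads per kb of exon, in percent, for each library; right, the ratio per kb of the activating receptors, together and each alone, to Fcgr2b, with 1 point per library. Fcgr4 stands at 4.62 and 4.44 times Fcgr2b in the WT-labeled libraries and at 1.76 and 1.77 times in the KO-labeled ones, and the Fcgr3 points overlap.

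The adaptor and the kinase were set beside the receptors in the same way, with these ratios chosen after the values were seen. Fcer1g per kb was 3.23 and 2.78 times the 3 activating receptors together in WT 1 and WT 2 and 2.23 and 1.77 times in KO 1 and KO 2 (log2 difference -0.59, pooled SD 0.20). Fcer1g to Tyrobp was 2.66 and 2.15 against 1.17 and 1.78 (log2 difference -0.73, pooled SD 0.34), and the difference ran from -0.43 without KO 1 to -1.04 without KO 2. Syk to Fcer1g was 0.00515 and 0.00473 against 0.00719 and 0.0112, a log2 difference of 0.86. Each of the 3 ratios separated the labels with an exact permutation p of 0.33, again the smallest possible.

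Reads of some other cell types split by label and those of others did not, and their part in the members' values was not tested. Macrophage or monocyte markers, led by Lyz2, took 2.92% and 4.03% of gene counts in WT 1 and WT 2 and 2.33% and 3.05% in KO 1 and KO 2, ranges that overlap. The overlap leans on Lyz2, at 7310 and 13499 CPM against 15135 and 10941. C1qb, also abundant, separated by label at 6265 and 8764 CPM against 2094 and 5021. Gene by gene, 9 of the 12 had fold changes below 0, with a median log2 fold change of -0.85 with TMM and -0.52 with library totals, beside -0.92 and -0.57 for the members, and 0 of 12 passed the edgeR test. Member reads per read of these markers were 0.321 and 0.214 against 0.201 and 0.176, a log2 difference of -0.48 beside a pooled SD of 0.31 (exact permutation p = 0.33). The difference ran from -0.18 without WT 1 to -0.77 without WT 2, and it depended on which markers were counted. It was -1.02 without the 3 C1q genes and Apoe, and 0.095 without Lyz2, where the ratios were 0.428 and 0.321 against 0.572 and 0.274 and overlapped between the labels. Per macrophage or monocyte marker read, Fcgr4 was 0.0204 and 0.0173 against 0.0105 and 0.00885 (log2 difference -0.96) and Fcer1g was 0.153 and 0.0931 against 0.0656 and 0.0568 (log2 difference -0.97). Without Lyz2 among the markers both overlapped, Fcgr4 at 0.0272 and 0.0260 against 0.0298 and 0.0138 (log2 difference -0.39) and Fcer1g at 0.204 and 0.140 against 0.187 and 0.0884 (log2 difference -0.39). Fcgr2b went the other way with all 12 markers, at 0.0203 and 0.0179 against 0.0273 and 0.0231 (log2 difference 0.40), and without Lyz2 at 0.0271 and 0.0270 against 0.0780 and 0.0360 (log2 difference 0.97), with no overlap in either case. Fcgr3, Syk, Tyrobp and Fcgr1 overlapped between the labels with all 12 markers, with log2 differences of -0.018, -0.10, -0.23 and -0.56. Without Lyz2 these were 0.56, 0.47, 0.34 and 0.014, and Fcgr3 no longer overlapped.

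Dendritic cell markers, mostly Irf8, took 0.0445% to 0.0557% of gene counts without separation by label, while 3 of the 5 tested had fold changes above 0 (median log2 fold change 0.73 with TMM and 0.99 with library totals). The members stood at 17.8 and 17.9 reads per read of that list in the WT-labeled libraries against 10.5 and 9.66 in the KO-labeled ones. Melanoma markers, led by the pigment gene Dct, took 0.0217% and 0.0254% against 0.232% and 0.125%, and fibroblast or endothelium markers, led by the collagen gene Col3a1, took 0.00207% and 0.00192% against 0.136% and 0.0199%. Neutrophil markers took 0.0128% and 0.0110% against 0.00556% and 0.00979%, lower in both KO-labeled libraries as the members were, with nearly all counts on Csf3r and at most 1 count on S100a9. NK cell markers held 3 and 17 counts against 154 and 49, and Klra8 was at 0. Among B cell markers Pax5 was at 0, and the 21 to 182 counts of the list were mostly on Cd79b. Mast cell or basophil markers held 0 to 3 counts, with Fcer1a, the alpha chain of the high-affinity IgE receptor, and Cpa3 at 0.

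**Figure D4:**
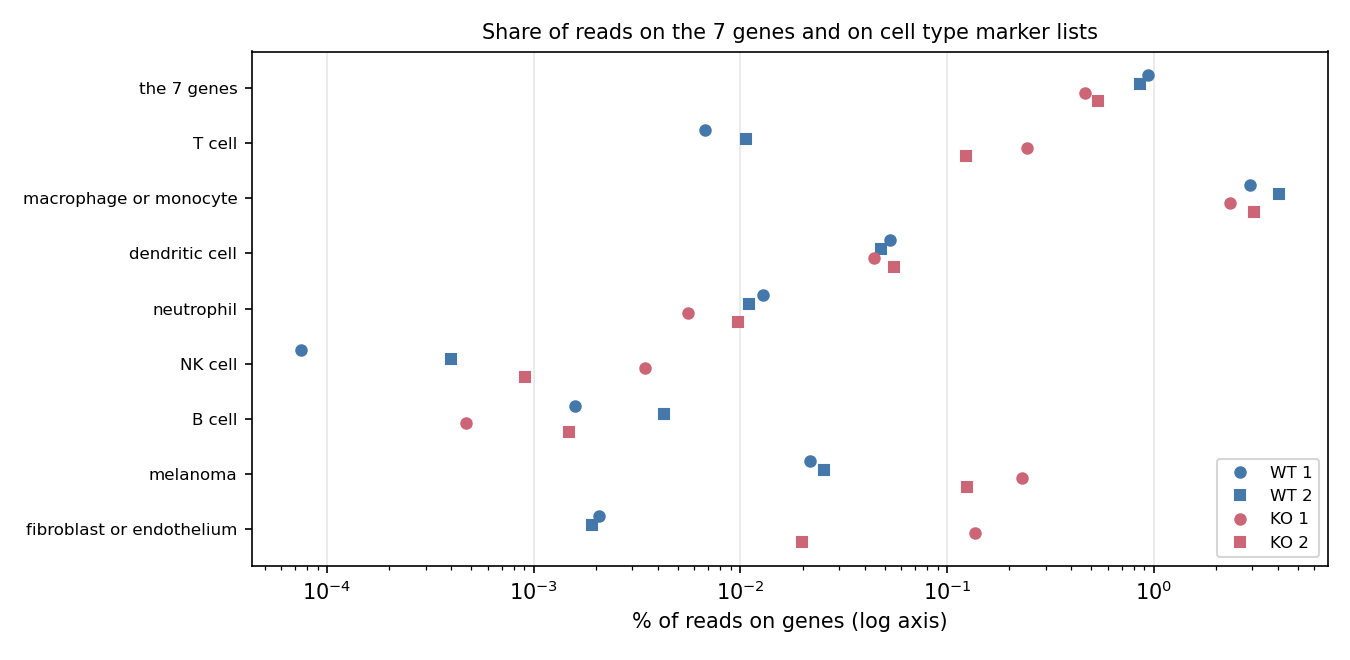
Share of gene counts, in percent on a log axis, on the 7 genes and on each cell type marker list, with 1 point per library; the mast cell or basophil list, at 0 to 3 counts, is not drawn. The 7 genes lie at 0.467% to 0.938%, the T cell list at 0.00672% and 0.0106% in the WT-labeled libraries and at 0.244% and 0.123% in the KO-labeled ones.

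Other Fc receptors were few. Of 13 genes, 5 were tested and 0 passed, with a median log2 fold change of -0.25 (TMM) or 0.064 (library totals), and Fcer1a, Fcer2a, Fcamr and Pigr were at 0 in all libraries. Fcgrt, the neonatal Fc receptor that recycles IgG inside cells, was the most abundant of the list but varied within a label, with 76.3 CPM in KO 1 and 464 in KO 2 beside 272 and 395 in WT 1 and WT 2. Its log2 fold change was -0.57, and it was 0.22 without KO 1 and -2.55 without KO 2. Fcrls, a microglia and macrophage receptor-like gene, measured 16.4 and 77.9 CPM against 72.1 and 60.6, and Trim21, the cytosolic receptor for antibody-coated virus, measured 13.7 and 18.3 against 19.9 and 21.2, with log2 fold changes of 0.21 and 0.038. Neither kept its sign, at -0.53 without WT 1 and 1.52 without WT 2 for Fcrls, and at -0.12 without WT 1 or KO 2 for Trim21.

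A list of receptors that pair with Fcer1g or Tyrobp, which also held the related adaptor Hcst and the receptor Clec7a, had 19 of its 23 genes tested. None passed the edgeR test, 12 were lower and 7 higher in the KO-labeled libraries, and 5 lower and 3 higher had an unadjusted p under 0.05, a threshold that 4.23% of all genes passed as lower and 9.44% as higher. Trem2, the lipid receptor of tumor macrophages that signals through Tyrobp, measured 382 and 193 CPM in WT 1 and WT 2 and 41.5 and 134 CPM in KO 1 and KO 2 (log2 fold change -2.04, SE 0.67, edgeR adjusted p = 0.240, and -1.36 without WT 1 to -3.27 without KO 2). Clec4n, or dectin-2, which uses Fcer1g, measured 220.0 and 191 CPM against 248 and 401 (log2 fold change 0.33, adjusted p = 0.796, and -0.18 without KO 2 to 0.68 without KO 1). Clec7a, or dectin-1, which carries its own ITAM-like motif, measured 84.4 and 103 CPM against 370 and 204 (log2 fold change 1.27, adjusted p = 0.273). The median of the list was -0.49 with TMM and -0.19 with library totals.

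Kinases and adaptors downstream of the ITAM were tested for all 27 listed genes, and 1 passed. Lat, an adaptor of T cells, NK cells and mast cells, had 14 and 16 counts in WT 1 and WT 2 and 279 and 225 in KO 1 and KO 2 (log2 fold change 3.49, SE 0.53, edgeR adjusted p = 0.0295), and its adjusted p was 0.0541 without WT 1. Among the most abundant of the list were the Src family kinase Lyn, which phosphorylates ITAMs, and the phosphoinositide 3-kinase adaptor Pik3ap1. Lyn measured 302 and 489 CPM against 338 and 216, and Pik3ap1 measured 329 and 317 CPM against 116 and 308. Their log2 fold changes were -0.84 and -0.91, and neither passed. That of Pik3ap1 was -0.34 without KO 1 and -1.92 without KO 2. On the whole list 12 genes were higher and 15 lower with TMM, and 16 higher and 11 lower with library totals.

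Receptors with an ITIM, phosphatases and other brakes on ITAM signaling were tested for all 24 listed genes, and 0 passed the edgeR test. With TMM 19 were lower and 5 higher in the KO-labeled libraries (median -0.61), and with library totals 18 were lower and 6 higher (median -0.27). At an unadjusted p under 0.05 (edgeR), 5 of the 24 were lower and 2 higher, beside 4.23% and 9.44% of all genes. Sirpa, which binds CD47 and restrains phagocytosis, measured 854 and 851 CPM in WT 1 and WT 2 and 356 and 758 CPM in KO 1 and KO 2 (log2 fold change -0.93, and -0.45 without KO 1 and -1.71 without KO 2). Ptpn6, the phosphatase SHP-1, measured 484 and 661 CPM against 325 and 607 (log2 fold change -0.60, and -0.17 without KO 1 and -1.25 without KO 2). Dok2, an adaptor that restrains Ras signaling, measured 371 and 533 CPM against 224 and 557 (log2 fold change -0.50, and 0.042 without KO 1 and -1.44 without KO 2). In each of these 3 genes KO 1 was the lowest library, and KO 2 was nearer the WT-labeled ones.

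Among the ITAM chains of lymphocytes and their kinase, 4 genes were called. Of 6 tested, 5 had fold changes above 0, and the 4 called higher in the KO-labeled libraries were Cd3d, Cd3e, Cd3g and the Syk homolog Zap70, all of which lost the call without WT 1. The fifth was Cd247, the zeta chain, with 4 and 25 counts against 205 and 150 (log2 fold change 3.10, edgeR adjusted p = 0.124, and 2.33 without WT 1 to 4.67 without WT 2). Cd3e, a subunit of the T cell receptor complex, had 26 and 41 counts against 585 and 659 (log2 fold change 3.65, edgeR adjusted p = 0.0221), and Cd3d had 40 and 57 against 1003 and 643 (3.53, adjusted p = 0.0269). Cd3g had 50 and 82 counts against 1632 and 648, and Zap70 had 9 and 22 against 280 and 440. Cd79b, a B cell receptor chain, was the exception in direction, at 61 and 182 against 12 and 73 counts (log2 fold change -2.07, edgeR adjusted p = 0.300, -1.30 without WT 2, -1.33 without KO 1 and -3.82 without KO 2).

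**Figure D5:**
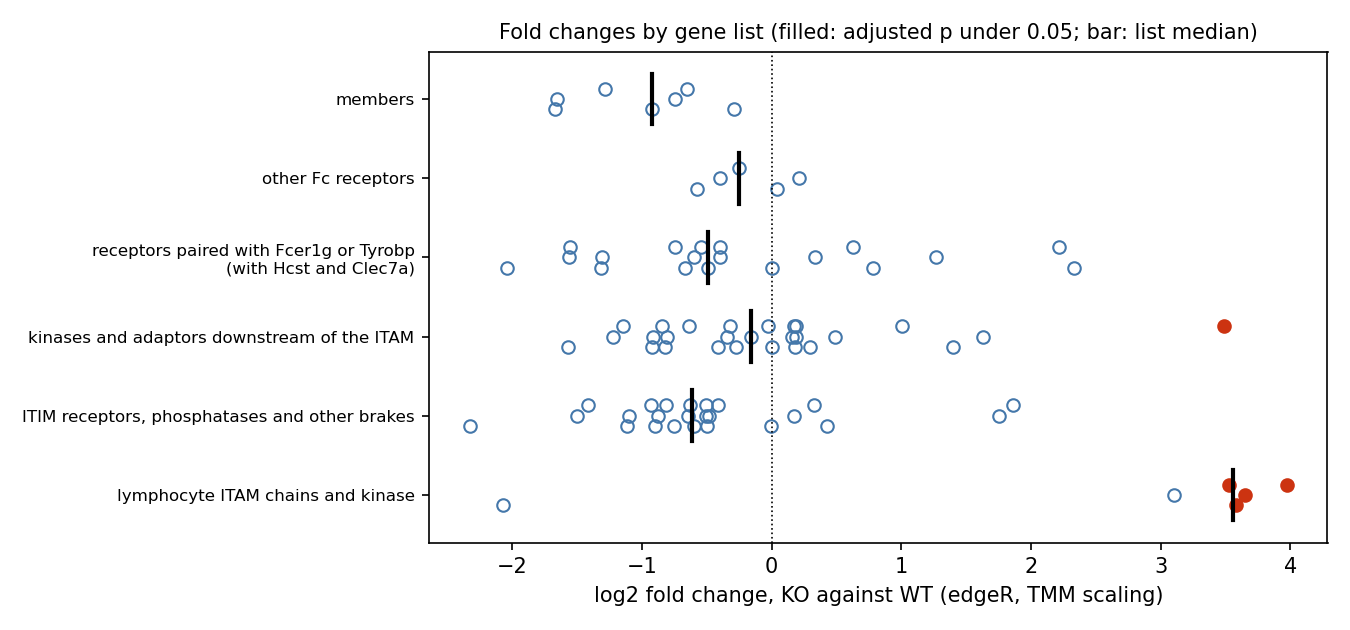
Log2 fold change, KO against WT (edgeR, TMM scaling), of each tested gene in the members and in the 5 lists of pathway genes; filled points have an adjusted p under 0.05 over all genes and bars are list medians. All 7 members lie below 0 at a median of -0.92, with 0 called, and filled points appear only for Lat and for 4 lymphocyte ITAM genes.

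The genes whose levels followed Fcer1g and Fcgr2b most closely were taken as the 3 smallest Euclidean distances between centered log2(CPM + 1) profiles over the 4 libraries, among 6280 genes with a mean of at least 20 CPM. For Fcer1g they were Arl11, a small GTPase-like gene (distance 0.153), Ms4a7, a membrane protein of macrophages (0.167), and the zinc finger gene Zfp652 (0.182), beside a median distance of 1.70. Ms4a7 measured 436 and 401 CPM in WT 1 and WT 2 and 145 and 188 CPM in KO 1 and KO 2. For Fcgr2b they were Pfkfb4, a regulator of glycolysis (0.0356), Leprot (0.0379) and Nsun5 (0.0410), beside a median of 0.861. With 4 libraries such profiles are a description, and a flat profile has many close neighbors.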

How the data were processed

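Polyadenylated RNA of cells sorted from dissociated tumors was sequenced in 4 libraries (NEBNext Ultra II kit, per the labels). For each library the authors deposited a table of raw counts of reads per gene. The submitters' processing notes name HISAT2 2.1.0, HTSeq 0.11.0 and the build mm10. The annotation, strand setting and read length are not given in the sources used here. Rows that name no gene held 71.2% to 79.5% of reads and entered neither library sizes nor tests. Of 55367 gene symbols, 96.3% matched GENCODE M21 (GRCm38), which gave positions and exon lengths (the union of a gene's exons). Groups came from the titles. Nothing says that the libraries of a label came from separate animals, so p-values measure the spread between these libraries, which may be technical.

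Counts were tested in R 4.3.3 with edgeR 4.0.16 (filterByExpr, TMM factors, glmQLFit and glmQLFTest, group as the only term, two-sided), with Benjamini-Hochberg adjustment over all 11837 genes tested and a threshold of 0.05. Standard errors came from the size of the fold change and its F statistic, and fits used a prior count of 0.125. CPM used the total of gene rows, and normalized CPM the TMM-scaled total. Ratios were tested by an exact permutation test over libraries. Shares had exact Clopper-Pearson 95% intervals. The script was checked on simulated counts. Alternatives were DESeq2 1.42.0, other scalings, no filter, a replicate block and each library left out in turn. Some were added after seeing the data: the crossed pairing, macrophage or monocyte markers without Lyz2, leaving out libraries for the share of counts, and the ratios of Fcer1g and Syk. The members, gene lists and tests were chosen with earlier results of these data known. Named were all members, in each pathway list the called genes (up to 5) and the 3 most abundant, the 3 nearest profiles to Fcer1g and Fcgr2b, and in each marker list the most abundant gene and markers at 0, of which some genes are not reported here; Satb1, Xist, Ddx3y, S100a9, Cd247 and Cd79b were chosen after their values were seen.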

Additional observations from a re-analysis of the deposited data

How the results depend on the processing

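Depth was ample for all 7 members (at least 528 counts each). The limits were 2 libraries per label and a label that cannot be told apart from sex, T cell content and melanoma content. The number of genes called by the edgeR test was 68 with TMM scaling and 65 with the size factors of DESeq2, 134 with library totals, 583 with no filter on low counts and 416 with the DESeq2 test. Members called numbered 0, except 2 with the DESeq2 test and 3 without KO 2. Leaving out 1 library gave 113 to 1248 genes and 0 to 3 members called, and a median member log2 fold change of -1.34 to -0.91 beside -0.92 with all libraries. With library totals that median was -0.57, and Fcgr2b turned from -0.29 to 0.034, since totals shift the median of all genes by 0.34. The log2 difference of the activating to inhibitory ratio was -1.21 with Fcgr1 and Fcgr4 alone, beside -0.77. Member reads per macrophage or monocyte marker read differed by -0.48, by -0.77 to -0.18 with 1 library left out, by -1.02 without the 3 C1q genes and Apoe, and by -0.82 per dendritic cell marker read. Without Lyz2, an alternative chosen after seeing the data, the difference reversed to 0.095, and the cause was not tested. The members' share of gene counts differed by -0.107 percentage points without Tyrobp and Fcer1g, beside -0.397. Titles number the libraries 1 and 2 under each label, but deviations of WT 1 and KO 1 from their group means correlated at -0.189 over 11837 genes, so the numbers are not shown to pair libraries. A replicate block called 215 genes and a crossed pairing, chosen after seeing the data, 647, with 0 members called by either.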
